A study of Mus musculus with 65 samples.

Results

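DMC1 hotspots of the Hormad1KO mouse were compared with those of the wild type. A hotspot is an interval in the deposited DMC1 list, and a wild-type hotspot counted as shared where a Hormad1KO hotspot overlapped it by at least 1 bp. The wild-type list held 13808 hotspots and the Hormad1KO list 5002, so that the 18810 entries of both lists formed 14050 sites. Of these, 4760 were shared, each with exactly 1 partner in the other list, 9048 were wild-type only and 242 were Hormad1KO only. Wild-type hotspots with a deposited DMC1 value of at least 500 were taken apart as strong: there were 3147, of which 2814 were shared and 333 were wild-type only.

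DNA breaks made by SPO11 start meiotic recombination. Their ends are resected to single-stranded DNA, and the recombinase DMC1 coats it, so that sequencing of DMC1-bound single strands maps the hotspots at which breaks were made. PRDM9 sets the places of breaks in mice. MEI4 and IHO1 are partners that SPO11 needs, and IHO1 binds HORMAD1, a HORMA-domain protein of unsynapsed chromosome axes that is needed for a normal level of breaks. SYCP3 is a core protein of the same axes, and CTCF binds DNA at chromatin loop anchors.

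All groups were whole testis of male C57BL/6JCrl mice, with the genotype given as wild-type or as Hormad1tm1.2Atot (Hormad1KO), a knockout allele of Hormad1. Every pup, of either genotype, was fed the retinoic acid inhibitor WIN 18,466 from an age of 1.5 days and then given retinoic acid, which starts meiosis in many spermatogonia at once, and testes were collected 8 days later. The 10 groups used, DMC1, MEI4, IHO1 and SYCP3 in both genotypes and HORMAD1 and CTCF in the wild type, have 2 samples each and 1 deposited list each. The lists hold no measure by which the deletion or the cell type could be checked. No list has a replicate, so no p-value was computed: shares have Wilson 95% intervals and differences of shares Newcombe 95% intervals, called where the interval excludes 0. These intervals cover counting error only and treat hotspots as independent, which neighbouring hotspots were not. Sequencing depth is unknown, and in whole testis fewer cells at the stage of breaks and less DMC1-bound DNA per cell cannot be told apart.

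The lists are positions, and the sequence under a hotspot was at hand only where an annotated promoter window lay inside one. Such hotspots were 79 of the 4760 shared ones (1.66%), 1098 of the 9048 wild-type only ones (12.1%) and 7 of the 242 Hormad1KO only ones (2.89%). To show what the classes can hold, the 250 bases upstream of the gene start are printed for the strongest such hotspot of each class, from RefSeq on GRCm38.p6 and on the plus strand, with every CpG in capitals. The shared one is chr1:154103613-154103862 before the predicted gene Gm46165, the wild-type only one is chr5:4312803-4313052 before the predicted gene Gm40261, and the Hormad1KO only one is chr11:79992856-79993105 before Suz12, a subunit of Polycomb repressive complex 2.
Gm46165: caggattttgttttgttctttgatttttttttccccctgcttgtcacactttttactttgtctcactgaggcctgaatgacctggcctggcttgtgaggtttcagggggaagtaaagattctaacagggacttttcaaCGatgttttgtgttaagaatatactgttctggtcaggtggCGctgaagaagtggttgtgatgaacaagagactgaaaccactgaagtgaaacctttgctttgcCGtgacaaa
Gm40261: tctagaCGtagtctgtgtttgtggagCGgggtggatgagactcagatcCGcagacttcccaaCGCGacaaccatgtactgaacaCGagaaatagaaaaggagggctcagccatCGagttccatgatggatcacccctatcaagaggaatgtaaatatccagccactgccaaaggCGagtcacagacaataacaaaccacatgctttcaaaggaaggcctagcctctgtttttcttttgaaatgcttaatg
Suz12: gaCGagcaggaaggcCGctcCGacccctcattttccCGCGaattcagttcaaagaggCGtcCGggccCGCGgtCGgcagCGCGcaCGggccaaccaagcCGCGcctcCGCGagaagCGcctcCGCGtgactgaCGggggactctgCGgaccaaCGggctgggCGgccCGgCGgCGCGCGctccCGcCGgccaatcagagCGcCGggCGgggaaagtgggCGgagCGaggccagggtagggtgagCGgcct

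The promoter of Gm46165 has 42.4% G and C and 3 CpG. It lies in a hotspot with a DMC1 value of 8698.5 in the wild type and 4555.5 in Hormad1KO, and a peak of each of the 8 protein lists was found there. The promoter of Gm40261 has 46.8% G and C and 8 CpG, and its hotspot had a wild-type value of 1493, a MEI4 peak in both genotypes and a wild-type SYCP3 peak. The Suz12 promoter has 73.6% G and C and 37 CpG, and its hotspot had a Hormad1KO value of 41 and none of the 8 protein peaks. The window inside a wild-type only hotspot held a median of 19 CpG, against 4 in shared hotspots, 8 in Hormad1KO only hotspots and 6 over all 32851 promoter windows of the table. At least 1 CpG was in 99.2% of the wild-type only windows, 93.7% of the shared, 85.7% of the Hormad1KO only and 92.1% of all windows. CpG-rich promoters were thus found mostly in the wild-type only class, which is also the class of low values, described next.

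Which hotspots were shared followed the wild-type DMC1 value closely. The share of wild-type hotspots found in Hormad1KO was 34.5% (4760 of 13808, 33.7 to 35.3), and the share of Hormad1KO hotspots found in the wild type was 95.2% (94.5 to 95.7). Shared hotspots had a median wild-type value of 663, and wild-type only hotspots 73.5. In the lowest decile of the wild-type value (1 to 33) 1.09% were found, in the fifth decile (90.5 to 129) 17.2%, and in the highest decile 98.6%. The values are the authors' own signal per hotspot, with no unit named, so they were used to rank or filter within 1 list and were not compared as levels between genotypes.

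The strong hotspots that were absent from the Hormad1KO list became rarer with each higher range of the wild-type value. Of all 3147 strong hotspots 10.6% were wild-type only. By range, these were 175 of 702 from 500 to 700 (24.9%, 21.9 to 28.3), 112 of 660 from 700 to 1000 (17.0%), 39 of 638 from 1000 to 1500 (6.11%, 4.50 to 8.25) and 7 of 1147 from 1500 up (0.610%, 0.296 to 1.25). Their median value was 687, against 1232.5 for strong shared hotspots. The strong shared hotspots reached down to a Hormad1KO value of 10.5, and 5% of them lay at or below 29.5, while the lowest value in the Hormad1KO list was 3. Whether a hotspot absent from that list had DMC1 below the authors' calling threshold was not tested.

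The strongest hotspots absent from Hormad1KO were few and had wild-type values far above 500. The first was chr3:38955433-38957630 in Fat4, an atypical cadherin gene, with a value of 5749.5 (rank 140 of 13808). It had wild-type peaks of MEI4, IHO1, HORMAD1 and SYCP3 and no peak of MEI4, IHO1 or SYCP3 in Hormad1KO. Next came chr18:80738227-80740232 in Atp9b, a P4-type ATPase gene, with a value of 2447, and chr18:81487108-81489070, at 2335, which is 500087 bp from the transcription factor gene Sall3. The Atp9b site kept a MEI4 peak in Hormad1KO and the other did not. The fourth was chr3:83932205-83934812 in Tmem131l, with 2305.5 and no MEI4 peak in either genotype. The fifth, chr14:103550224-103552235 in Scel, which encodes the cornified envelope precursor sciellin, had a value of 2258.5 and MEI4 and IHO1 peaks in both genotypes. The 5 sites thus ranged from no protein peak in Hormad1KO to both break proteins, with no DMC1 hotspot listed there. At the threshold of 500, chr16:86641399-86643472 (500.5) and chr3:28575155-28576990 in Tnik (501) were just inside, and chr1:184742779-184744682 and chr18:77645474-77647247 (both 497) just outside, and none of these 4 had a protein peak.

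MEI4 separated the strong wild-type only hotspots from the strong shared ones. In the wild type, MEI4 peaks were at 63 of 333 wild-type only hotspots (18.9%, 15.1 to 23.5) and at 1328 of 2814 shared ones (47.2%, 45.4 to 49.0), against 44.2% of all strong hotspots. The difference was -28.3 percentage points (-32.5 to -23.4), and within the 4 ranges of the wild-type value it was -9.19 points (-13.4 to -4.27). In Hormad1KO, MEI4 peaks were at 93 of the 333 (27.9%, 23.4 to 33.0) and at 2383 of the 2814 (84.7%, 83.3 to 86.0), against 78.7% of all strong hotspots. This difference was -56.8 points (-61.5 to -51.5), and -48.4 points (-53.2 to -42.7) within value ranges. MEI4 in Hormad1KO was therefore low at the absent hotspots also where the wild-type value was alike.

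IHO1 peaks, too, were at fewer of the absent hotspots. IHO1 peaks of Hormad1KO were at 9 of 333 strong wild-type only hotspots (2.70%, 1.43 to 5.06) and at 1494 of 2814 strong shared ones (53.1%, 51.2 to 54.9), against 47.8% of all strong hotspots. The difference of -50.4 points (-52.6 to -47.4) was -29.4 points (-32.1 to -25.8) within value ranges. Wild-type IHO1 peaks were at 2.40% and 18.3% (16.7% of all strong hotspots), a difference of -15.9 points (-17.8 to -13.3). Within value ranges this difference was 0.607 points (-0.634 to 2.99), which is not called. From 500 to 700 and from 700 to 1000, though, only 3 of 527 and 3 of 548 shared hotspots had a wild-type IHO1 peak. A lower share at the absent hotspots of those ranges could hardly appear.

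The axis proteins behaved like wild-type IHO1. HORMAD1 peaks of the wild type were at 7 of 333 strong wild-type only hotspots (2.10%) and at 580 of 2814 strong shared ones (20.6%), against 18.7% of all, a difference of -18.5 points (-20.4 to -15.9). Within value ranges it was -0.0722 points (-1.19 to 2.25), which is not called. SYCP3 peaks of the wild type were at 5.71% and 34.3% (31.3% of all), a difference of -28.6 points (-31.3 to -25.1), and -1.86 points (-3.90 to 1.23), not called, within value ranges. SYCP3 peaks of Hormad1KO were at 2 of 333 and 161 of 2814 (0.601% and 5.72%; 5.18% of all), a difference of -5.12 points (-6.14 to -3.37) that was -0.919 points (-1.84 to 1.42) within value ranges. HORMAD1 on the wild-type hotspot thus went with high wild-type values, and no difference between lost and kept ones of like value could be shown. From 500 to 700 and from 700 to 1000, where most lost ones lay, HORMAD1 peaks were at only 3 of 527 and 5 of 548 shared hotspots. A lower share at lost hotspots could hardly appear there, so this comparison cannot decide whether HORMAD1 separates the classes.

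**Figure D1:**
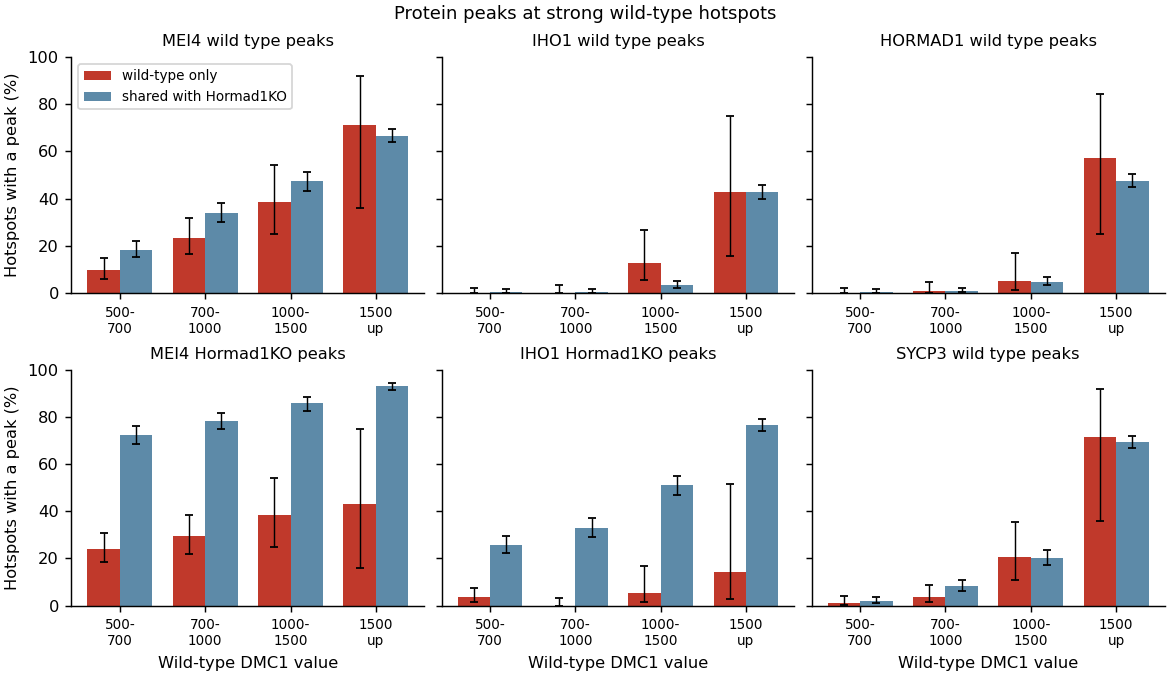
Share of strong wild-type hotspots with a protein peak (percent, bars, with Wilson 95% intervals) by range of the wild-type DMC1 value, for wild-type only hotspots (red) and those shared with Hormad1KO (blue), in 6 protein lists. In the range from 500 to 700, MEI4 peaks of Hormad1KO were at 24.0% of wild-type only and 72.3% of shared hotspots. IHO1, HORMAD1 and SYCP3 peaks of the wild type were rare in both classes in that range, at 1.90% or less.

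Within a class, the wild-type and Hormad1KO lists were set side by side. Among strong shared hotspots, 1278 of 1328 with a wild-type MEI4 peak had one in Hormad1KO (96.2%, 95.1 to 97.1), and so had 1105 of 1486 without (74.4%, 72.1 to 76.5). At strong wild-type only hotspots these counts were 36 of 63 (57.1%, 44.9 to 68.6) and 57 of 270 (21.1%, 16.7 to 26.4). For IHO1, 435 of 516 strong shared hotspots with a wild-type peak kept it (84.3%, 80.9 to 87.2) and 1059 of 2298 without had a Hormad1KO peak (46.1%, 44.1 to 48.1). At strong wild-type only hotspots the counts were 2 of 8 and 7 of 325. SYCP3 went the other way in both classes, with 143 of 966 wild-type peaks found again at strong shared hotspots (14.8%, 12.7 to 17.2) and 1 of 19 at wild-type only ones. The whole lists differed in the same directions, with 1566 MEI4 peaks in the wild type and 3828 in Hormad1KO, 1589 and 1860 IHO1 peaks, and 1911 and 823 SYCP3 peaks. The counts at shared hotspots are thus not shown to be particular to these hotspots, and the depth of the lists is unknown.

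CTCF and gene ends did not separate the strong classes. CTCF peaks were at 8.71% of wild-type only and 7.04% of shared strong hotspots (7.21% of all), a difference of 1.67 points (-1.09 to 5.30). Ends of protein-coding genes, widened by 1 kb, were at 4.80% and 5.33% (5.27% of all), a difference of -0.526 points (-2.56 to 2.43) whose sign varied with the settings. The X chromosome held 2 of the 333 and 146 of the 2814 (0.601% and 5.19%; 4.70% of all), a difference of -4.59 points (-5.57 to -2.85). It was -4.00 points (-5.38 to -1.53) within value ranges, and -5.52 points (-6.70 to 2.25), no longer called, at values of at least 1000. Strong hotspots of the X chromosome were thus seldom absent from Hormad1KO.

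The absent strong hotspots were clustered along the chromosomes. By chromosome, the share of strong hotspots that were wild-type only was highest on chromosome 10 (45 of 171, 26.3%, 20.3 to 33.4), 15 (34 of 153, 22.2%), 3 (36 of 181, 19.9%) and 18 (21 of 116, 18.1%). It was lowest on the X chromosome (2 of 148, 1.35%), chromosome 9 (5 of 154, 3.25%) and chromosome 12 (5 of 150, 3.33%). In 10 Mb bins with at least 5 strong hotspots, of which there were 252, 125 bins had lost none. The 15 bins that had lost at least 50% of their strong hotspots held 168 of 3099 strong hotspots (5.42%) and 110 of the 327 absent ones in these bins (33.6%). The 6 of these 15 bins with the highest share absent, singled out after their values were seen, were chromosome 15 from 90 to 100 Mb (13 of 15 absent), 10 from 0 to 10 Mb (8 of 10), 18 from 80 to 90 Mb (7 of 9), 16 from 90 to 100 Mb (5 of 7), 16 from 70 to 80 Mb (7 of 10) and 3 from 140 to 150 Mb (13 of 19).

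Strong hotspots within a few megabases of an absent one were more often absent too, though most of them were shared. Among neighbours within 0.25 Mb of a strong wild-type only hotspot, 41.1% of strong hotspots were wild-type only too, against 6.03% of the neighbours of a strong shared hotspot. At 2 to 5 Mb these shares were 32.1% and 7.86%, at 5 to 10 Mb 23.0% and 8.79%, and at 20 to 50 Mb 7.54% and 9.32%. Shared hotspots moved with them. A rank shift is the change in percentile rank of a shared hotspot from the wild-type to the Hormad1KO list, ranked over the 4760 shared hotspots, positive where the hotspot stood higher in Hormad1KO. Of the 263 strong wild-type only hotspots with a shared hotspot within 1 Mb, 259 had shared neighbours whose median shift was negative (98.5%), with a middle value of -29.8 percentile points. For strong shared hotspots this was 1545 of 2661 (58.1%), with a middle value of -3.92. The shifts of 2 shared hotspots correlated over pairs with Pearson r 0.64 within 0.25 Mb (3360 pairs), 0.57 at 1 to 2 Mb, 0.36 at 2 to 5 Mb, 0.14 at 5 to 10 Mb and -0.01 at 20 to 50 Mb. Pairs reuse hotspots and come from the same 2 lists, so these r values are descriptions. Where an absent strong hotspot had shared hotspots within 1 Mb, their median shift was thus nearly always negative.

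**Figure D2:**
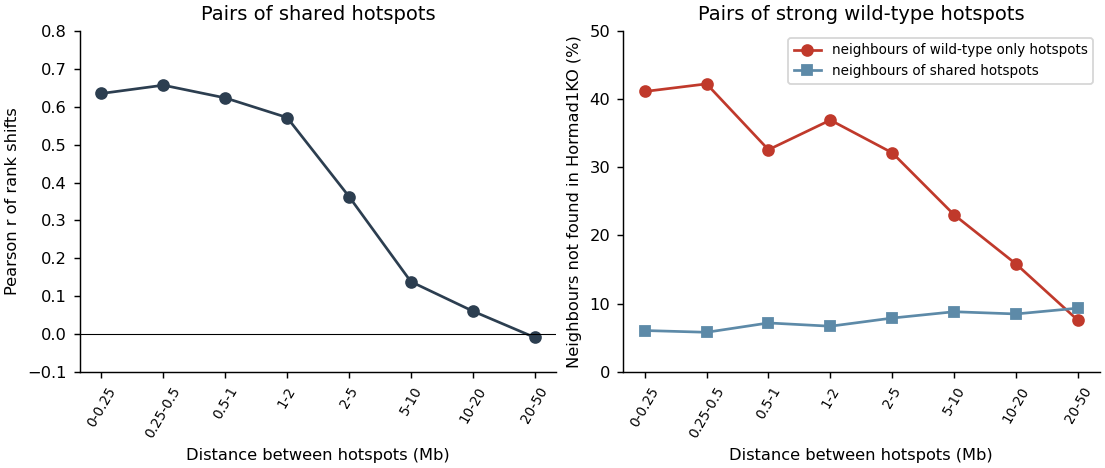
Left, Pearson r of the rank shifts of 2 shared hotspots by the distance between them (Mb). Right, share of strong wild-type hotspots not found in Hormad1KO (percent) among neighbours of wild-type only (red) and of shared hotspots (blue) by distance. The correlation falls from 0.64 within 0.25 Mb to -0.01 at 20 to 50 Mb, and the red line from 41.1% to 7.54%.

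Hotspots in the gene-densest surroundings were found again more often than others. Hotspots were divided into 4 equal groups by the number of protein-coding genes centred within 1 Mb, from 0 to 7 genes to 22 to 118 genes. Of all wild-type hotspots, 30.4%, 30.2%, 33.6% and 43.7% were found from the gene-poorest to the gene-densest group. The gene-densest and the gene-poorest group differed by 13.3 points, and by 15.1 points (13.6 to 16.7) within deciles of the wild-type value. In the fifth decile, 25 of 316 were found in the gene-poorest group (7.91%) and 117 of 339 in the gene-densest (34.5%). Of the strong hotspots, 14.3%, 13.7%, 8.51% and 5.26% were wild-type only from the gene-poorest to the gene-densest group. Hotspots that themselves overlapped a gene end, on the other hand, were found less often, 16.1% against 37.3% elsewhere (-21.2 points, -23.0 to -19.3), and by -3.71 points (-4.92 to -2.33) within deciles. In the share found, a gene-dense surrounding and a gene end under the hotspot thus went in opposite directions. In rank they did not: of shared hotspots at a gene end, 58.1% ranked higher in Hormad1KO, against 48.6% of the others (9.44 points, 3.59 to 15.1).

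**Figure D3:**
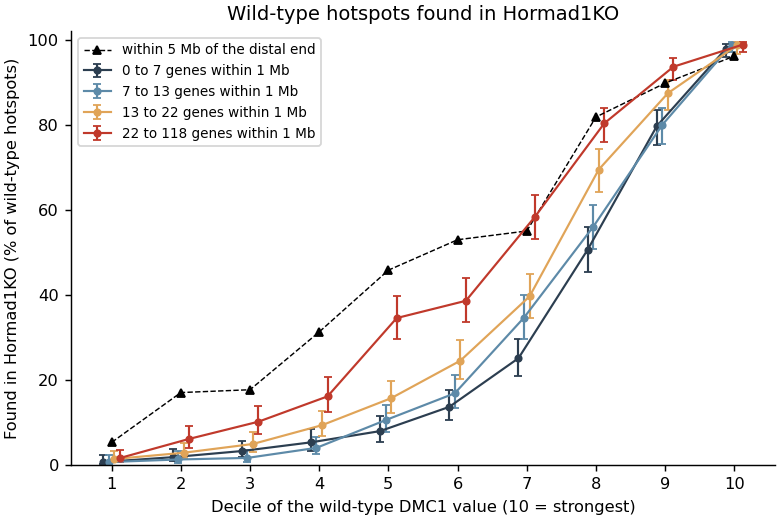
Share of wild-type hotspots found in Hormad1KO (percent, with Wilson 95% intervals) by decile of the wild-type DMC1 value, in 4 groups by the number of protein-coding genes within 1 Mb, and for hotspots within 5 Mb of the distal chromosome end (black triangles, no intervals). In the fifth decile the gene-densest group is at 34.5%, the gene-poorest at 7.91% and the distal hotspots at 45.8%, and in the highest decile they are at 98.8%, 97.9% and 96.2%.

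At strong hotspots, peaks of MEI4 and SYCP3 in both genotypes and of IHO1 in Hormad1KO were more frequent where genes were dense. MEI4 peaks of Hormad1KO were at 69.9% of strong hotspots in the gene-poorest and 88.7% in the gene-densest group (difference 18.8 points, 15.0 to 22.6), and those of the wild type at 32.8% and 58.5% (25.7 points, 21.0 to 30.3). IHO1 peaks of Hormad1KO were at 36.7% and 66.8% (30.1 points, 25.3 to 34.6), whereas IHO1 peaks of the wild type were at 16.9% and 17.3% (0.448 points, -3.20 to 4.13). HORMAD1 peaks were at 18.3% and 21.2% (2.89 points, -0.967 to 6.77, and 3.93 points, 0.762 to 7.13, within value ranges). SYCP3 peaks were at 29.1% and 38.8% in the wild type (9.69 points, 5.10 to 14.2) and at 3.05% and 9.88% in Hormad1KO (6.84 points, 4.49 to 9.33). Of the 3 proteins with lists in both genotypes, IHO1 thus followed gene density in Hormad1KO and not beyond counting error in the wild type, and the difference between these contrasts was not tested.

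Among the shared hotspots the order of strength was partly kept. The Spearman correlation of the values was 0.67 over the 4760 pairs, and 54 of the 100 highest in the wild type were among the 100 highest in Hormad1KO. The centres of partners were a median of 72 bp apart, and at most 1150 bp. The shift in rank was over 25 percentile points for 1324 pairs (27.8%), with a median size of 14.7 points. Over all pairs 2342 (49.2%) ranked higher in Hormad1KO, which is the background for the counts that follow. Ranks are over shared hotspots alone, so the shifts describe hotspots that were listed in both genotypes.

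The extreme sites show the range. The hotspot with the highest Hormad1KO value was chr2:38136483-38138890 in Dennd1a, an exchange factor gene for RAB35, with 20513.5 in the wild type and 10257 in Hormad1KO. After it came chr11:89610453-89613094 in Ankfn1 (20822.5 and 9403) and chr11:79545600-79548424 in Nf1, the RAS regulator neurofibromin (12505.5 and 8873.5). These stood at ranks 2, 1 and 18 in the wild type and at 1, 2 and 3 in Hormad1KO. The strong hotspot that rose most was chr14:56467453-56469494 in Rnf17, a germ cell Tudor-domain gene, from 557 (rank 2635) to 1033 (rank 253), with MEI4 and IHO1 peaks in Hormad1KO and not in the wild type. The next were chr2:98661931-98663501, from rank 2734 to 380, and chr4:133902761-133904786, which is 14964 bp from the kinase gene Rps6ka1, from rank 2770 to 509. The Rps6ka1 site also had MEI4 and IHO1 peaks in Hormad1KO alone, while the chromosome 2 site had no peak in any of the 8 lists and 0 genes within 1 Mb. Whether reads map uniquely at the chromosome 2 site was not tested, so it may not be a true hotspot.

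The sites that fell most lost nearly all of their rank. At chr8:10833160-10835163, which is 149518 bp from the insulin receptor substrate gene Irs2, the value was 1831.5 in the wild type (rank 894) and 15 in Hormad1KO (rank 4684), with wild-type peaks of MEI4, IHO1, HORMAD1 and SYCP3 and none of the proteins in Hormad1KO. At chr11:19700902-19702854, which is 221588 bp from the RAS pathway inhibitor gene Spred2, the rank went from 1162 to 4651, and at chr17:85043555-85045698 in the amino acid transporter gene Slc3a1 from 1153 to 4498. Both of these had a MEI4 peak in Hormad1KO. None of the 3 had an IHO1 peak in Hormad1KO, whereas the Rnf17 and Rps6ka1 sites did.

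Peaks of the wild type and of Hormad1KO marked opposite shifts. Of shared hotspots with a wild-type HORMAD1 peak, 186 of 594 ranked higher in Hormad1KO (31.3%), against 51.8% of those without, a difference of -20.4 points (-24.3 to -16.3). For wild-type IHO1 this was 28.2% against 51.8% (-23.7 points, -27.6 to -19.4), for wild-type SYCP3 37.9% against 52.2% (-14.3 points, -17.7 to -10.8) and for wild-type MEI4 44.1% against 51.3% (-7.22 points, -10.3 to -4.12). Most hotspots with each of these peaks therefore did not rise, but the typical fall was small. Their median shifts were -3.29 percentile points for HORMAD1, -3.97 for IHO1, -2.57 for SYCP3 and -1.70 for MEI4. With a Hormad1KO IHO1 peak 56.9% ranked higher, against 44.9% without (12.0 points, 9.07 to 14.9), with a Hormad1KO SYCP3 peak 71.5% against 48.4% (23.1 points, 15.8 to 29.5) and with a Hormad1KO MEI4 peak 51.1% against 44.8% (6.34 points, 3.25 to 9.39). Median shifts with these Hormad1KO peaks were 2.25 points for IHO1, 2.57 for SYCP3 and 0.399 for MEI4. A hotspot high in a list is more likely to have a peak in that genotype. Within quartiles of the mean of both ranks, the differences for wild-type peaks were -27.4 points for HORMAD1, -30.7 for IHO1, -21.0 for SYCP3 and -4.19 for MEI4. For Hormad1KO peaks they were 17.8 for IHO1, 26.4 for SYCP3 and 9.31 for MEI4, with all signs and calls kept. These quartiles cannot remove the coupling, because at a like mean a hotspot that fell had the higher wild-type rank. Hotspots with wild-type IHO1 or HORMAD1 peaks also had little room to rise, with median wild-type rank percentiles of 93.1 and 92.2.

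The change of the IHO1 list between the genotypes went with the shift. The 1269 shared hotspots with an IHO1 peak only in Hormad1KO ranked higher there in 845 cases (66.6%, 63.9 to 69.1; median shift 7.53 points). The 439 with a peak in both genotypes did so in 28.9% (24.9 to 33.3), the 90 with a wild-type peak only in 24.4% (16.7 to 34.2) and the 2962 with neither in 45.5% (43.7 to 47.3). Median shifts of these were -3.17, -11.8 and -2.72 points. The groups started from unlike strengths, with median wild-type values of 1176.5 (Hormad1KO only), 3849 (both), 2685 (wild type only) and 404 (neither). MEI4 showed a narrower range, with 55.9% of the 1953 with a peak only in Hormad1KO, 44.2% of the 1356 with both, 41.1% of the 56 with a wild-type peak only and 44.9% of the 1395 with neither. Among hotspots of the second-lowest quartile of wild-type rank, IHO1 peaks of Hormad1KO were at 1.31%, 9.55%, 38.3% and 70.4% from the lowest to the highest quartile of Hormad1KO rank. Wild-type IHO1 peaks there were at 0.522%, 0.531%, 0.301% and 0% (0 of 98, Wilson upper bound 3.77%). In the highest quartile of wild-type rank, IHO1 peaks of Hormad1KO were at 5.88% (1 of 17), 21.7%, 63.0% and 89.1% over the same quartiles of Hormad1KO rank. Wild-type IHO1 peaks there were at 23.5% (4 of 17), 16.3%, 27.7% and 50.1%. IHO1 in Hormad1KO thus followed Hormad1KO rank in both quartiles, and wild-type IHO1 was also most frequent at the highest Hormad1KO rank among the hotspots strongest in the wild type.

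Gene density ordered the shifts of shared hotspots. Over 4 equal groups of shared hotspots by genes within 1 Mb (0 to 8, 8 to 15, 15 to 28 and 28 to 117 genes), 29.7%, 36.6%, 58.4% and 72.2% ranked higher in Hormad1KO, with median shifts of -11.1, -5.96, 3.09 and 10.4 points. The difference between the gene-densest and the gene-poorest group was 42.5 points (38.8 to 46.1). The Spearman correlation of the number of genes and the shift was 0.39, a description over sites that share neighbours. CTCF peaks, which lay at more of the strong hotspots in gene-dense regions (8.99% against 3.17%), went with the same direction: 57.4% of shared hotspots with a CTCF peak ranked higher against 48.6% without (8.82 points, 3.30 to 14.2). With a 1 kb window at each centre the CTCF difference was 6.42 points (-1.09 to 13.7) and not called. On the X chromosome 43.4% ranked higher against 49.5% on the autosomes, a difference of -6.08 points (-12.7 to 0.809) that is not called.

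**Figure D4:**
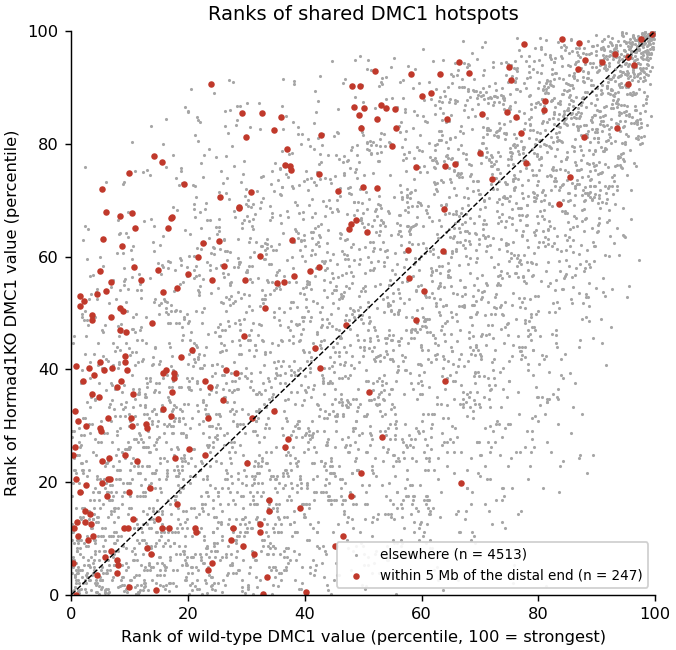
Percentile rank of each shared hotspot by the wild-type DMC1 value (horizontal) and by the Hormad1KO DMC1 value (vertical), 100 being the strongest. The 247 hotspots within 5 Mb of the distal chromosome end (red) lie mostly above the diagonal, 193 of them ranking higher in Hormad1KO, and the 4513 others (grey) lie on both sides.

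The ends of chromosomes stood apart. Mouse chromosomes have the centromere at their proximal end, where base counting starts. Within 5 Mb of the distal end, 193 of 247 shared hotspots ranked higher in Hormad1KO (78.1%, 72.6 to 82.8), against 47.6% elsewhere, a difference of 30.5 points (24.8 to 35.4). These 247 had a median rank percentile of 24.0 in the wild type and 48.7 in Hormad1KO, so they had more room to rise than to fall. Of wild-type hotspots in the distal 5 Mb, 247 of 514 were found (48.1%), against 33.9% elsewhere. This difference was 14.1 points (9.74 to 18.5), and 17.6 points (14.0 to 21.3) within deciles of the wild-type value. In the last 1 Mb, 65 of 68 shared hotspots ranked higher (95.6%) and 68 of 105 wild-type hotspots were found (64.8%). The effect depended on the last few megabases, since at 7.5 to 10 Mb from the end 32.1% ranked higher and 15.9% were found. With 10 Mb in place of 5 Mb, the difference in the share found was -1.98 points (-4.72 to 0.858). Among strong hotspots, 2.70% of the wild-type only and 2.74% of the shared ones lay in the distal 5 Mb (2.73% of all), a difference of -0.0336 points (-1.47 to 2.38) that became 7.33 points (4.02 to 11.4) with 10 Mb.

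The proximal ends showed the reverse. At 3 to 5 Mb from the first base, 6 of 37 shared hotspots ranked higher in Hormad1KO (16.2%) and 14.3% of wild-type hotspots were found. At 5 to 7.5 Mb it was 3 of 46 (6.52%) and 17.0%, and at 10 to 15 Mb 38 of 169 (22.5%) and 28.7%. Beyond 50 Mb, 53.5% ranked higher and 36.7% were found. The median wild-type value was 120.5 at 3 to 5 Mb, 111 in the distal 1 Mb and 128.5 beyond 50 Mb from the first base. Hotspots near the centromeres were thus found less often in Hormad1KO and tended to fall in rank. Those in the last 1 Mb were found more often and tended to rise in rank. The similar median wild-type values are over all wild-type hotspots there, not over the shared ones that were ranked.

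**Figure D5:**
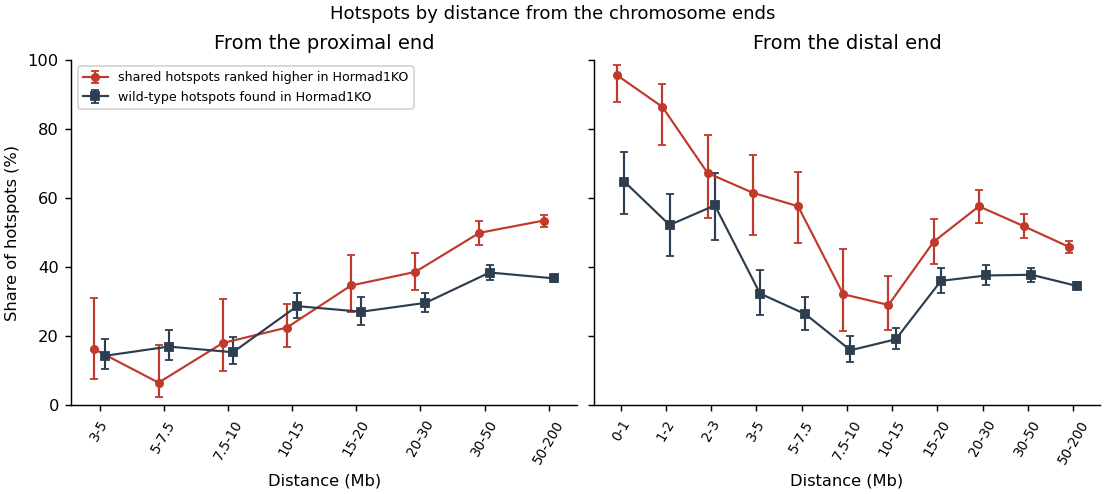
Share of shared hotspots that ranked higher in Hormad1KO (red circles) and share of wild-type hotspots found in Hormad1KO (blue squares), in percent with Wilson 95% intervals, by distance from the proximal (left) and distal (right) chromosome end in Mb. Both shares are low near the proximal end (16.2% and 14.3% at 3 to 5 Mb, 6.52% and 17.0% at 5 to 7.5 Mb) and highest in the last 1 Mb (95.6% and 64.8%).

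The distal pattern was uneven between chromosomes. Among autosomes of C57BL/6J mice, chromosomes 4, 9 and 13 carry distal blocks known for minisatellite-dependent accumulation of IHO1, MEI4 and REC114. In their distal 5 Mb, 70 of 71 shared hotspots ranked higher in Hormad1KO (98.6%, 92.4 to 99.8; median shift 36.1 points). On the other chromosomes 123 of 176 did (69.9%, 62.7 to 76.2; median 12.3 points), a difference of 28.7 points (19.9 to 35.9). These 3 chromosomes were not alike: the median shift was 15.6 points on chromosome 4 (18 of 19 higher), 37.1 on 9 and 40.8 on 13, beside 25.1 on chromosome 2, 24.6 on 6, 23.0 on 7 and 33.2 on X. All 27 distal hotspots of chromosome 9, 25 of chromosome 13, 16 of chromosome 7 and 9 of chromosome 12 ranked higher, and 9 of 10 on the X chromosome did. Only 1 of 6 did on chromosome 17, 1 of 4 on 15 and 2 of 8 on 18. The increase in rank was thus seen at the ends of several autosomes besides 4, 9 and 13 and was absent from others, each with few hotspots. The X chromosome was counted with the other chromosomes, and whether its end holds such a block was not tested.

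Hotspots listed in Hormad1KO alone were few and mostly weak. They made up 4.84% of the Hormad1KO list, with a median value of 17.5 (3 to 719) against 76.5 for shared Hormad1KO hotspots. By quartile of the Hormad1KO value from the lowest, they numbered 202, 25, 8 and 7. The nearest wild-type hotspot was a median of 67197 bp away, and 18 of the 242 had one within 10 kb. Chromosome 9 held 32 of them (9.67% of its Hormad1KO hotspots) and chromosome 1 held 30 (7.59%). Most of these hotspots were thus at the low end of the Hormad1KO list.

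The highest of them was chr3:97258484-97260628 in Bcl9, a coactivator gene of the Wnt pathway, with a value of 719 (rank 361 of 5002) and MEI4, IHO1 and SYCP3 peaks in Hormad1KO but none of the wild-type proteins. It lay 1.67 Mb from the Hormad1 gene itself (chr3:95559677-95587863), and 3 of the 11 Hormad1KO only hotspots of chromosome 3 lay within 10 Mb of that gene, as did 47 of all 227 Hormad1KO hotspots of the chromosome (20.7%). The strain in which the knockout allele was made is not given in the sources used here. The others were chr9:58982745-58984158 in Neo1, the receptor neogenin (351.5), chr14:118428334-118430263, 52429 bp from the transporter gene Abcc4 (292.5), chr12:113937450-113939783, 391036 bp from Adam6a (260), and chr1:84811033-84812316 in the ubiquitin ligase gene Trip12 (250.5). Of these 4, only the Trip12 site had MEI4 and IHO1 peaks in Hormad1KO, and the Abcc4 and Adam6a sites had no protein peak. The Bcl9 and Trip12 sites thus had the proteins of a break site, and the other 3 did not.

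Break proteins were listed less often at Hormad1KO only hotspots than at shared ones. MEI4 peaks of Hormad1KO were at 20 of 242 (8.26%, 5.41 to 12.4) and at 3309 of 4760 shared Hormad1KO hotspots (69.5%, 68.2 to 70.8), against 66.6% of all Hormad1KO hotspots, a difference of -61.3 points (-64.4 to -56.9). It was -29.1 points (-32.4 to -24.9) within quartiles of the Hormad1KO value. IHO1 peaks were at 7 of 242 (2.89%) and 35.9% (34.3% of all), a difference of -33.0 points (-35.0 to -29.7) that was -2.77 points (-4.11 to 0.192), no longer called, within quartiles. MEI4 was therefore lower also within these quartiles. The lowest quartile, from 3 to 34.5, held 202 of the 242, so the values compared there were only roughly alike. Among shared hotspots in the lowest quartile of Hormad1KO rank, IHO1 peaks of Hormad1KO were rare. They were at 2 of 619, 5 of 383, 5 of 171 and 1 of 17 from the lowest to the highest quartile of wild-type rank. A lower IHO1 share at Hormad1KO only hotspots could hardly appear there, so the IHO1 comparison within quartiles cannot decide. CTCF peaks (6.61% and 7.10%; 7.08% of all) and gene ends (5.79% and 6.20%; 6.18% of all) differed by -0.489 points (-3.10 to 3.43) and -0.412 points (-2.83 to 3.33), neither called and both with a sign that varied with the settings. The distal 5 Mb of chromosomes held 24 of 242 (9.92%) against 5.19% of shared Hormad1KO hotspots (5.42% of all), a difference of 4.73 points (1.50 to 9.18), and 4.46 points (1.24 to 9.29) within quartiles.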

How the data were processed

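DMC1 was mapped by sequencing of single-stranded DNA after immunoprecipitation, and the other proteins by chromatin immunoprecipitation and sequencing. The submitters' processing notes name Bowtie2, MACS2 and mm10, without versions or roles. Per the series' design text, the signal of each protein's own knockout was taken from its data. Whether the 2 samples of a group were pooled is not given in the sources used here.

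The DMC1 signal values were deposited by the authors per hotspot, as multiples of 0.5 with no unit named. The protein lists of the authors give positions only. The CTCF scores and the lists of other genotypes were not used. Coordinates are on mm10 and counted from 1.

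Lists were joined by overlap with Python 3.11.15, numpy 2.4.6, pandas 2.3.3 and scipy 1.17.1. The overlap and interval code was tested on simulated intervals. Gene ends come from 21887 protein-coding genes of RefSeq GRCm38.p6, whose table gives no strand, and the distal end of a chromosome is its last annotated or called base. Differences within value ranges, quartiles or deciles are weighted by the counts of the first class of each comparison. Neighbour, gene density, chromosome end and promoter results, and the choice of the 3 promoters (chromosome 18 left out), were added after the data were seen. Sites named are the 5 highest of each unshared class, the 3 highest shared, the 3 strong shared sites with the largest rise and fall, and the 2 next to the threshold on each side. The members and lists were chosen with earlier results of these data known.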

Additional observations from a re-analysis of the deposited data

How the results depend on the processing

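Of 151 alternatives for 27 results, 126 kept the direction and the call. The share of wild-type hotspots found was 37.3% away from gene ends, and that of Hormad1KO hotspots 96.7% in the upper 50% of both lists. The strong wild-type only hotspots numbered 1149 in that upper 50%, 1112 at values of at least 250 and 46 at 1000, and the rank correlation over that upper 50% was 0.58. The 1149 include strong hotspots whose Hormad1KO partner was removed by the cut, so that rise follows from the setting. Within value ranges the difference was -0.0722 points for HORMAD1 and -1.86 for wild-type SYCP3 at strong hotspots, and within quartiles -2.77 for IHO1 at Hormad1KO only hotspots. The CTCF difference in rank was 6.42 with a 1 kb window, and the X chromosome difference -5.52 at values of at least 1000. The uncalled CTCF difference at Hormad1KO only hotspots turned to 0.148 with a 50% overlap, 2.30 in the upper 50% of the lists and 0.238 within quartiles. That of gene ends turned to 0.792 with a 50% overlap, 0.597 with the 1 kb window and 1.02 with no margin. At strong hotspots the gene end difference turned to 0.0730 with a 50% overlap, 1.10 at values of at least 250, 1.23 at 1000 and 0.180 with no margin. The distal difference at strong hotspots turned to 0.0204 on autosomes, 0.104 at values of at least 1000 and 7.33, called, with 10 Mb, and the distal difference in the share found to -1.98 with 10 Mb. The cause was not tested. Of 26 alternatives for single results beside these, 25 kept their call, and the SYCP3 difference of Hormad1KO at Hormad1KO only hotspots was called with the 1 kb window (-2.64).

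No paired analysis was possible because each group has 1 deposited list and no replicate values. With no second list and no depth, a hotspot absent from the shorter Hormad1KO list cannot be told apart from 1 below its calling threshold, and intervals that treat clustered hotspots as independent are too narrow.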
